A study of Arabidopsis thaliana and Marchantia polymorpha and Mesotaenium endlicherianum with 120 samples.

Results

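Seedlings lacking a working phytochrome B were compared with the wild type in warm, dim light. The Arabidopsis thaliana groups were the accession Col-0 and the line Atphyb-9, both kept for 2 days at 20 °C in white light of 100 µmol per square metre and second and then for 5 days at 24 °C in light of 10 µmol per square metre and second, all continuous. These intensities are called light 100 and light 10. Each group held 3 libraries of whole seedlings of 7 days, so the comparison used 6 of the 48 Arabidopsis libraries and of the 120 libraries of the series, and all genes with a row in the Arabidopsis count table entered, 32833 in number. The same lines were also grown at 24 °C in light 100 and at 16 °C in light 10 and light 100, and the series holds 2 further Arabidopsis mutants and 3 other green organisms. The shared pre-treatment and the absence of darkness apply to both lines. phyB-9, the allele in the line's name, is known for a premature stop codon in the Col-0 background, and it is 1 allele. Some laboratory stocks of phyB-9 are known to carry a second mutation in VEN4, and the labels do not say which stock was grown. Nothing in the labels says whether the 3 libraries of a group came from separate sowings. The p-values rest on the spread within groups, estimated over all 48 Arabidopsis libraries and not from these 6 alone. That spread may be technical.

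Phytochrome B is a red-light receptor that returns from its active to its inactive form faster in warmth and in shade, so that it reports on both light and temperature. The active form binds PIF transcription factors, promotes their breakdown and blocks their binding to DNA. Plants without it are long and pale, flower early and show traits of shade avoidance, in which PIF factors raise auxin synthesis and cell wall loosening.

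Total counts ran from 35806859 to 43279739 per library. Nuclear rRNA genes held 3.99%, 3.76% and 1.81% of the counts in Col-0 replicates 1 to 3 and 18.3%, 9.02% and 11.6% in Atphyb-9 replicates 1 to 3. Gene identifiers of the plastid genome held 1.99% to 3.31% in Col-0 and 4.97% to 9.15% in Atphyb-9. Neither share overlapped between the lines, so these shares and the genotype cannot be told apart. Markers of other tissues and stages were summed as well. The 17 seed reserve genes summed to 386, 730.1 and 276 CPM (counts scaled to a common library size after TMM correction) in Col-0 and to 92.4, 203 and 206 CPM in Atphyb-9, without overlap, with LEA18 and HIS1-3 called lower. The 18 root genes summed to 357 to 390 CPM in Col-0 and 415 to 529 CPM in Atphyb-9, without overlap, and the 5 floral organ genes tested to 3.09 to 3.65 CPM and 1.72 to 3.43 CPM. By gene the root list had a median log2 change of 0.03, so its sum does not speak for every member. The part of these markers in the results that follow was not tested. In whole seedlings, fewer cells of a type and less RNA per cell cannot be told apart.

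PHYB (AT2G18790) was counted at 34.0, 38.2 and 34.1 CPM in Col-0 replicates 1 to 3 and at 25.2, 29.1 and 25.4 CPM in Atphyb-9 replicates 1 to 3. All 3 Atphyb-9 libraries were below all Col-0 libraries, and the transcript fell by 0.41 ± 0.0973 in log2 (SE; adjusted p from edgeR = 0.00233). A premature stop codon does not remove the gene's reads, so this level checks the label only in part. PHYA (AT1G09570), the receptor for far-red light, rose from 106, 118 and 107 CPM to 156, 158 and 135 CPM (0.44 ± 0.120, adjusted p = 0.00825). The other phytochromes were not called, with PHYC at -0.17 ± 0.167, PHYD at 0.16 ± 0.146 and PHYE at 0.21 ± 0.148 on the log2 scale.

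In this comparison 4013 of 22828 genes tested passed an adjusted p of 0.05 (edgeR), and these are the called genes. Higher in Atphyb-9 were 1956 (8.57% of those tested) and lower 2057 (9.01%). The libraries of the 2 lines did not overlap in 8085 genes (35.4%), called or not. Called changes had a median absolute size of 0.58 on the log2 scale. Over all genes tested, the signed log2 change had a median of 0.00 and quartiles of -0.27 and 0.32. Called and at least 2-fold higher were 511 genes (2.24% of those tested), and called and at least 2-fold lower 306 (1.34%). The counts of the lists described here are read against these shares. Without Col-0 replicate 1, Col-0 replicate 3 or Atphyb-9 replicate 1 the called genes numbered 2540, 2664 and 2608, and with the rRNA share of each library as a covariate 2219.

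**Figure D1:**
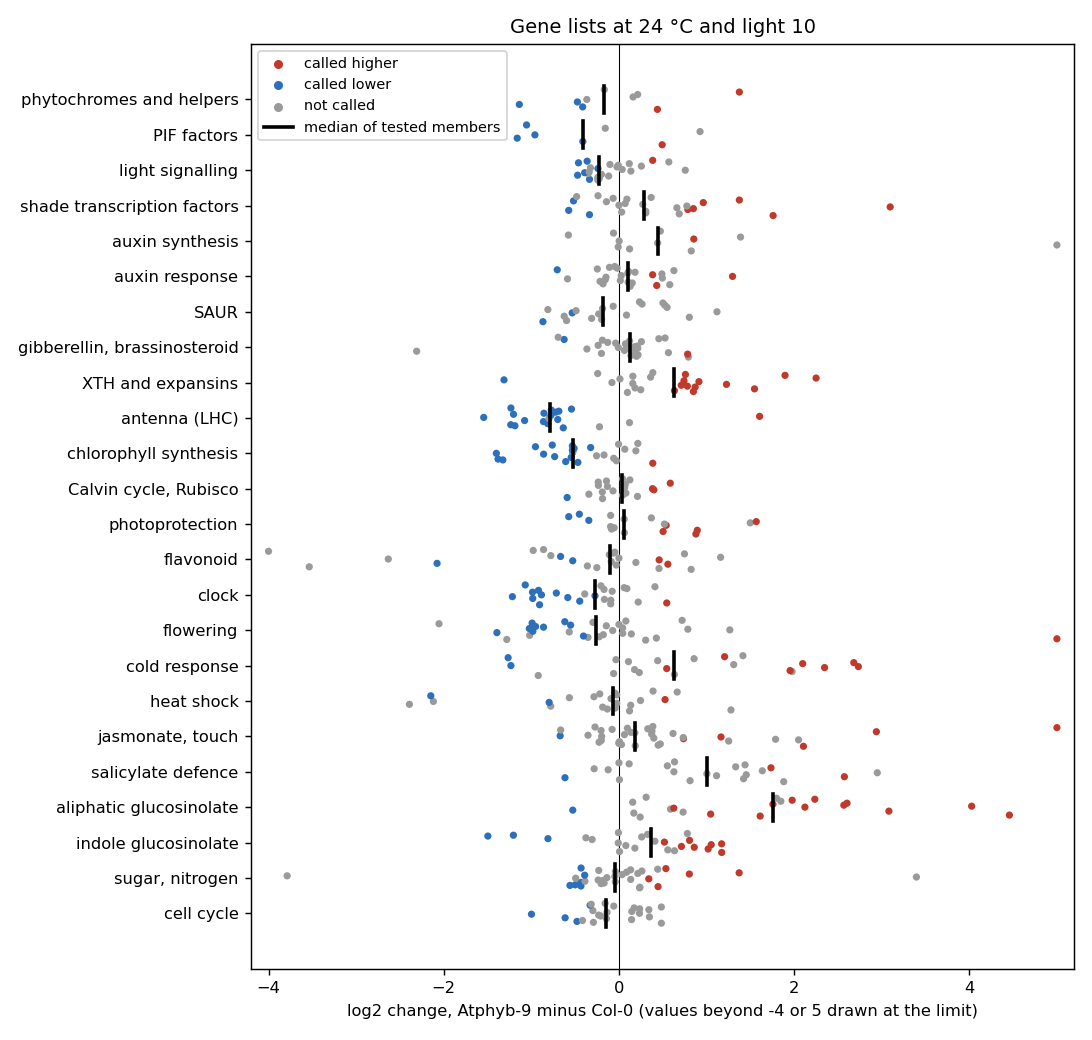
The log2 change between Atphyb-9 and Col-0 at 24 °C in light 10 is plotted for each tested member of 24 gene lists, with genes called higher in red, called lower in blue and not called in grey, and a black bar at each list's median. Antenna, chlorophyll and clock genes lie mostly to the left, and XTH, expansin and aliphatic glucosinolate genes mostly to the right, with medians from -0.79 for the antenna to 1.76 for the aliphatic glucosinolate list.

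The transcripts of the PIF factors themselves were mostly lower in the mutant. PIF4 (AT2G43010), which drives elongation in warmth, was counted at 91.0, 78.9 and 86.7 CPM in Col-0 and at 39.4, 43.9 and 31.4 CPM in Atphyb-9. No Atphyb-9 library came near the lowest Col-0 library, and PIF4 fell by 1.16 ± 0.140 (adjusted p = 8.13e-08). PIF5 (AT3G59060), a close relative with an overlapping role, went from 140.2, 119 and 138 CPM to 61.2, 68.7 and 74.6 CPM (-0.96 ± 0.114, adjusted p = 6.76e-08). PIF7 (AT5G61270), a main factor of the shade response, went from 16.8, 10.6 and 14.2 CPM to 6.31, 6.23 and 7.45 CPM (-1.05 ± 0.167, adjusted p = 1.39e-05). These groups did not overlap either. Of the 7 PIF genes tested, 4 fell and 1 rose, with a median of -0.41. PIF1 (-0.41 ± 0.128) and PIF3 (0.49 ± 0.151) were the weaker calls. Without Atphyb-9 replicate 1 or Col-0 replicate 1 PIF1 was no longer called (adjusted p = 0.10 and 0.109), nor with the rRNA covariate (0.273), and PIF3 was not called without Atphyb-9 replicate 3, Col-0 replicate 1 or Col-0 replicate 3 (adjusted p up to 0.111).

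Partners of PHYA moved in opposite directions. FHY1 and FHL carry PHYA into the nucleus, and FHY3 and FAR1 are the transcription factors that raise both genes. FHL (AT5G02200) was at 2.12, 1.85 and 1.11 CPM in Col-0 and at 3.29, 5.68 and 4.16 CPM in Atphyb-9, so every mutant library was above every wild-type library (1.37 ± 0.341, adjusted p = 0.00376). FHY1 (AT2G37678) was at 3.51, 3.04 and 3.83 CPM in Col-0 and at 1.61, 1.56 and 1.55 CPM in Atphyb-9 (-1.14 ± 0.310, adjusted p = 0.00828). FHY3 (AT3G22170) fell by 0.47 ± 0.135 (adjusted p = 0.0115), a call that was lost without Atphyb-9 replicate 1 (0.0522) or Col-0 replicate 1 (0.0617) and with the rRNA covariate (0.168). Of the 9 genes in the list of these partners and the phytochromes, 2 rose and 3 fell, PHYA and PHYB included. With the rRNA share of each library as a covariate, 2 rose and 1 fell, with FHY1 at -0.89 (adjusted p = 0.0842).

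The stretch of 250 bases before the start of the FHL gene is shown because it was the only promoter window with a G-box, CACGTG, the site that PIF factors are known to bind, among the 10 called members of the shade factor and auxin synthesis lists. It lies at chr5:437115-437364 on the plus strand of TAIR10.1, and the sequence is RefSeq's. The capitals mark the CACGTG copies, which begin 129 and 75 bases before the gene's start.

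FHL: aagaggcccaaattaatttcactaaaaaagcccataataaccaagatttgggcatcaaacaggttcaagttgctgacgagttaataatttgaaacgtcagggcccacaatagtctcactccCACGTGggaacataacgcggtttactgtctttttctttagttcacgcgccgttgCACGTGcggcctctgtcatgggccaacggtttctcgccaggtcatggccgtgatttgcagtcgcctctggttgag

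The motif reads the same on both strands. Over windows of this length it was present in 1623 of 22604 genes (7.18%), in 6.63% of those called higher and in 9.07% of those called lower. The match describes these letters alone.

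Classical shade markers rose, led by small regulators that restrain the response. PIL1 (AT2G46970), a bHLH gene induced rapidly by shade, was at 0.523, 0.398 and 0.652 CPM in Col-0 and at 4.87, 4.19 and 4.50 CPM in Atphyb-9. The groups lay far apart (3.1 ± 0.512, adjusted p = 3.03e-05). HFR1 (AT1G02340), an atypical bHLH protein that sequesters PIF factors, went from 20.6, 17.8 and 20.4 CPM to 66.6, 72.6 and 60.0 CPM (1.76 ± 0.227, adjusted p = 5.97e-07). ATHB2 (AT4G16780), a homeodomain factor and a standard marker of low red to far-red light, went from 11.8, 10.3 and 11.4 CPM to 22, 23.4 and 19.6 CPM (0.96 ± 0.194, adjusted p = 0.000431). Every Atphyb-9 library exceeded every Col-0 library in all 3 genes. PAR1 (0.79 ± 0.237) and IBH1 (0.85 ± 0.183), both non-DNA-binding repressors of growth factors, rose as well. HBI1 (-0.57 ± 0.157) and BEE2 (-0.52 ± 0.146), bHLH genes that promote elongation, fell. PAR1 was not called without Atphyb-9 replicate 1 or Col-0 replicate 1 (adjusted p up to 0.0872), nor BEE2 without Atphyb-9 replicate 1 or Col-0 replicate 3 (up to 0.0554), and with the rRNA covariate PAR1, HBI1 and BEE2 were at adjusted p-values of 0.232, 0.217 and 0.282. In all, 6 of the 24 genes of the shade list rose and 3 fell, with a median of 0.29. The list is not made of transcription factors alone, since FHL was among the genes that rose. FHL was also counted with the phytochromes, and BBX24, among those that fell, with the light signalling genes.

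Auxin genes showed few calls. YUC8 (AT4G28720), which encodes a flavin monooxygenase of auxin synthesis and is a known PIF target, was at 4.68, 5.34 and 4.57 CPM in Col-0 and at 10.09, 9.43 and 6.88 CPM in Atphyb-9. The groups did not overlap (0.85 ± 0.286, adjusted p = 0.0324), yet the call was lost in 5 of the 6 fits that left out 1 library, all but the one without Atphyb-9 replicate 3, at adjusted p-values up to 0.123, and with the rRNA covariate (0.124). It was the only call among 11 auxin synthesis genes. IAA19 (AT3G15540), an auxin-induced repressor of the auxin response, went from 2.81, 2.62 and 2.63 CPM to 7.22, 6.47 and 6.15 CPM (1.3 ± 0.260, adjusted p = 0.00042). GH3.2 (AT4G37390), whose enzyme conjugates auxin to amino acids, went from 23.59, 22.4 and 20.3 CPM to 11.2, 18.16 and 11.3 CPM (-0.70 ± 0.179, adjusted p = 0.00483). Of 25 auxin response genes 3 rose and 1 fell. Among 19 SAUR genes, small growth genes induced by auxin, none rose and 2 fell, namely SAUR62 (-0.87 ± 0.235) and SAUR50 (-0.53 ± 0.175), and neither was called without Atphyb-9 replicate 3 (adjusted p = 0.0987 and 0.25). SAUR50 also lost its call without any 1 of the Col-0 libraries, and neither was called with the compared groups alone (0.0523 and 0.0897). The SAUR19 to SAUR24 copies are near-identical, so the split of reads among them is uncertain. In the gibberellin and brassinosteroid list 1 of 28 genes rose, GA2OX2 (0.78 ± 0.231), which inactivates gibberellin, and 1 fell, the DELLA gene RGL3 (-0.63 ± 0.189). GA2OX2 was not called without Atphyb-9 replicate 3 or Col-0 replicate 2 (adjusted p up to 0.155), nor RGL3 without Atphyb-9 replicate 2 (0.0635).

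Genes of cell wall loosening rose more broadly, with 12 of 23 xyloglucan endotransglucosylase (XTH) and expansin genes higher, 1 lower and a median of 0.63. XTH15 (AT4G14130) was at 35.0, 28.2 and 25.5 CPM in Col-0 and at 159, 139 and 123 CPM in Atphyb-9. Each mutant library was thus several times above the highest wild-type library (2.25 ± 0.186, adjusted p = 2.05e-11). XTH17 (AT1G65310) rose by 1.55 ± 0.173, XTH18 (AT4G30280) by 1.90 ± 0.337, XTH4 (AT2G06850) by 0.78 ± 0.130 and EXPA4 (AT2G39700), an alpha-expansin, by 1.23 ± 0.148. XTH18 was highest in Atphyb-9 replicate 3, at 50.0 CPM against 20.5 and 16.6 CPM in the other mutant libraries, and without that library it rose by 1.25. EXPA16 (AT3G55500) was the exception, at 19.5, 25.7 and 21.4 CPM in Col-0 and 8.16, 9.62 and 9.02 CPM in Atphyb-9 (-1.31 ± 0.198, adjusted p = 6.61e-06). With 1 library left out in turn, 11 or 12 of the list rose, and with the rRNA covariate 11. ATPMEPCRD (AT2G43050), a pectin methylesterase gene, was among the genes with the largest increases of the whole comparison, from 26.8, 24.8 and 24.4 CPM to 120.0, 132 and 115 CPM (2.27 ± 0.159).

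**Figure D2:**
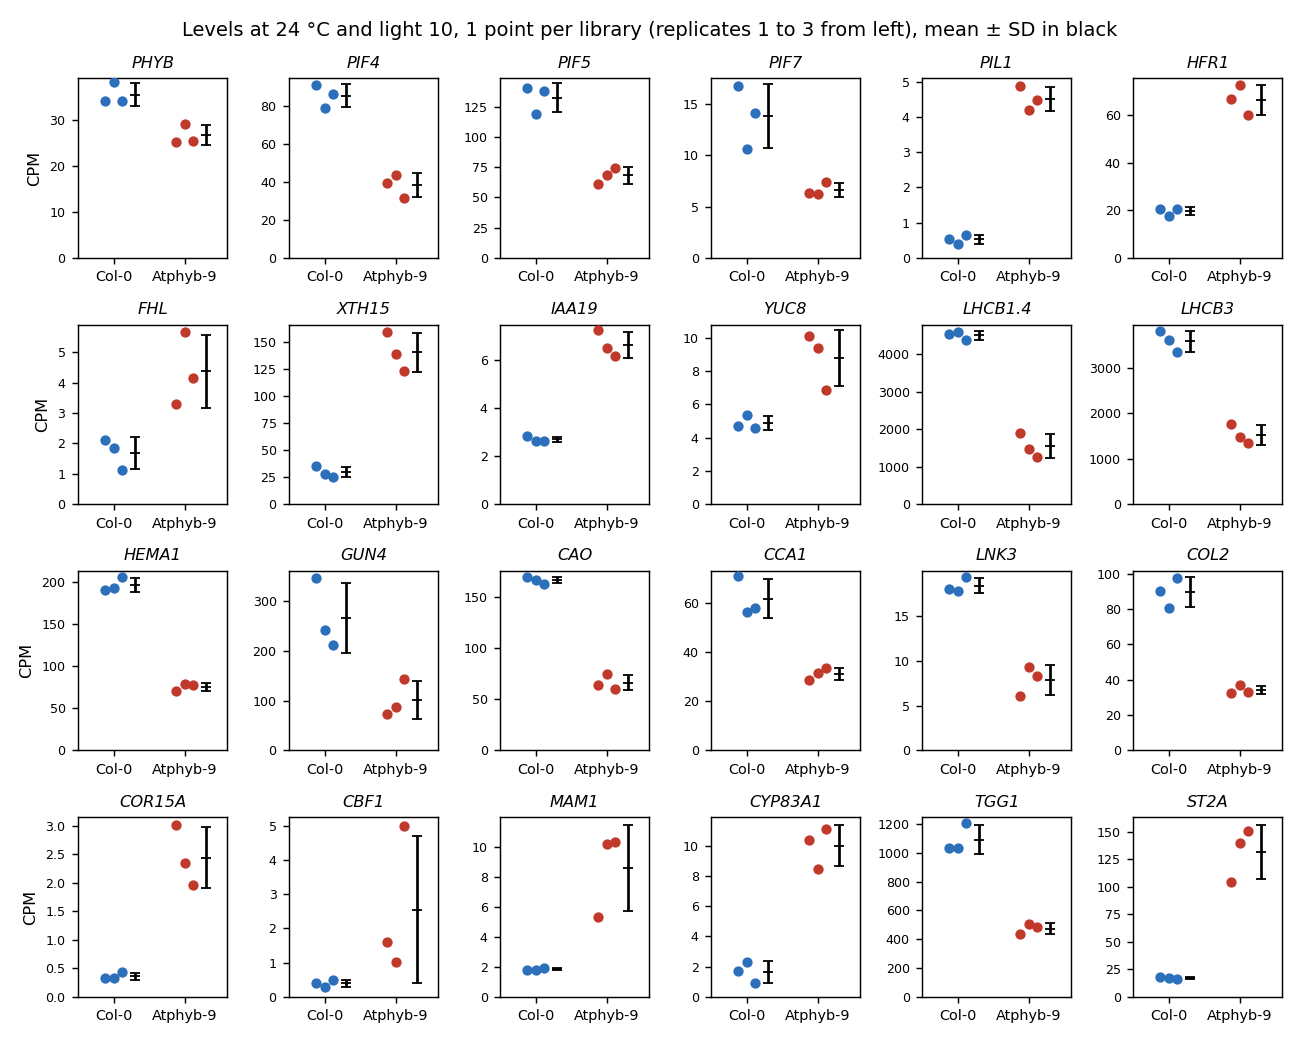
CPM in each of the 3 Col-0 (blue) and 3 Atphyb-9 (red) libraries at 24 °C in light 10 is plotted for 24 genes, with the mean ± SD in black and each axis starting at 0. XTH15 sits between 123 and 159 CPM in Atphyb-9 against at most 35.0 CPM in Col-0, and HEMA1 between 70.1 and 78.7 CPM against at least 189.7 CPM.

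Genes of the light-harvesting antenna, which bind most of the plant's chlorophyll, were lower nearly throughout. Of 20 antenna genes 16 fell and 1 rose, with a median of -0.79. LHCB3 (AT5G54270), a subunit of the trimeric antenna of photosystem II, was at 3806, 3600 and 3334 CPM in Col-0 and at 1762, 1466 and 1340 CPM in Atphyb-9. The mutant libraries lay well below the wild type (-1.23 ± 0.131, adjusted p = 4.64e-09). LHCB1.4 (AT2G34430) went from 4549, 4597 and 4379 CPM to 1893, 1485 and 1261 CPM (-1.54 ± 0.187, adjusted p = 1.08e-07). LHCA3 (AT1G61520), of the photosystem I antenna, went from 3240, 2990 and 2820 CPM to 2057, 1467 and 1457 CPM (-0.86 ± 0.141, adjusted p = 2.62e-05). LHCB4.3 (AT2G40100), a minor-antenna isoform, was the member that rose, from 2.32, 1.71 and 2.11 CPM to 7.95, 4.04 and 6.80 CPM (1.61 ± 0.240, adjusted p = 7.59e-06). LHCB1.1 to LHCB1.3, and LHCB1.4 with LHCB1.5, are near-identical copies whose reads may be split by the counting. LHCB1.5 (AT2G34420) was listed at 0 in Atphyb-9 replicates 1 and 3 beside 1210 CPM in replicate 2, so it is uncertain and was not called. Leaving out 1 library in turn gave 15 to 17 lower, and the rRNA covariate 16.

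Chlorophyll synthesis genes were lower as well, with 15 of 25 lower, 1 higher and a median of -0.53. HEMA1 (AT1G58290), glutamyl-tRNA reductase at the entry of the pathway, was at 189.7, 193 and 206 CPM in Col-0 and at 70.1, 78.7 and 77.2 CPM in Atphyb-9. These libraries were tightly grouped (-1.38 ± 0.144, adjusted p = 3.37e-09). CAO (AT1G44446), which makes chlorophyll b, went from 169.9, 167 and 163 CPM to 64.3, 75.03 and 60.4 CPM (-1.33 ± 0.122, adjusted p = 1.87e-10). CHLH (AT5G13630), a subunit of magnesium chelatase, went from 1360, 1485 and 1431 CPM to 738, 774 and 697 CPM (-0.95 ± 0.135, adjusted p = 2.22e-06). CRD1 (AT3G56940), of the cyclase step, fell by 0.86 ± 0.10. GUN4 (AT3G59400), an activator of magnesium chelatase, varied more, at 346, 241 and 212 CPM in Col-0 and 72.3, 87.1 and 144 CPM in Atphyb-9 (-1.40 ± 0.427, adjusted p = 0.0208), and its call was lost without Atphyb-9 replicate 1 or 2 or Col-0 replicate 1 (adjusted p up to 0.107), with the rRNA covariate (0.132) and with the compared groups alone (0.0524). HEMF1 (AT1G03475), coproporphyrinogen oxidase, was the member that rose (0.39 ± 0.0935, adjusted p = 0.00305; 0.0561 with the rRNA covariate). GLK2 (AT5G44190), a transcription factor for antenna and chlorophyll genes, went from 251, 258 and 236 CPM to 187, 176 and 178 CPM (-0.46 ± 0.108, adjusted p = 0.00222). HY5 (AT5G11260), a bZIP factor that promotes light responses, was at 5.06, 6.18 and 6.26 CPM in Col-0 and 5.29, 5.98 and 5.03 CPM in Atphyb-9, overlapping groups that gave no call (-0.10 ± 0.167, adjusted p = 0.734). Of 25 light signalling genes 1 rose, UVR8 (0.39), and 6 fell. UVR8 was not called without Atphyb-9 replicate 1 or Col-0 replicate 3 (adjusted p up to 0.0808) or with the rRNA covariate (0.0833), and 4 of the list fell without Atphyb-9 replicate 3 or Col-0 replicate 1 or 2 and 3 with the covariate. Among the leaf markers, whose list shares LHCB1.3 with the antenna, 3 of 9 fell and none rose. With 1 library left out 1 or 2 fell, since TCP4 lost its call in 5 of these 6 fits and GL1 in 4.

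Of 19 Calvin cycle and Rubisco genes, which serve carbon fixation, 1 fell and 3 rose, with a median of 0.04. Over all genes tested 9.01% fell and 8.57% rose. The lower one was PRK (AT1G32060), phosphoribulokinase, at 903, 854 and 905 CPM in Col-0 and 572, 609.8 and 585 CPM in Atphyb-9 (-0.59 ± 0.0963, adjusted p = 2.32e-05). The 3 rises fell to 1 without Atphyb-9 replicate 1 and with the rRNA covariate. In the photoprotection list, 5 of 17 rose and 3 fell, against 3 rising without Col-0 replicate 1, 7 without Atphyb-9 replicate 2, and 3 rising and 1 falling with the rRNA covariate. Catalase genes split: CAT3 (AT1G20620) went from 2186, 2117 and 1891 CPM to 3781, 3870 and 3864 CPM (0.89 ± 0.112, adjusted p = 1.72e-07), whereas CAT2 (AT4G35090), the leaf catalase of photorespiration, went from 2718, 2717 and 2708 CPM to 1804, 1790 and 1879 CPM (-0.57 ± 0.119, adjusted p = 0.000609). Neither overlapped between lines. APX1 (AT1G07890), a cytosolic ascorbate peroxidase, rose by 0.88 ± 0.151. Flavonoid genes were mostly not called, with 2 of 24 higher and 3 lower. MYB12 (AT2G47460), an activator of flavonol synthesis, fell by 2.08 ± 0.525 (adjusted p = 0.00487), from 1.44, 1.05 and 1.57 CPM to 0.456, 0.347 and 0.169 CPM. TT5 (0.46) and PAL1 (0.56), the higher ones, were not called without Atphyb-9 replicate 3 (adjusted p = 0.132 and 0.0753), and TT5 also not without Col-0 replicate 2 or 3, with the rRNA covariate (0.0844) or with the compared groups alone (0.0792).

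The clock genes CCA1, LHY and LNK1 to LNK4 were lower in constant light. Of 23 clock genes 11 fell and 1 rose, with a median of -0.27. CCA1 (AT2G46830), a morning-phased repressor, was at 70.7, 56.2 and 57.8 CPM in Col-0 and at 28.5, 31.6 and 33.3 CPM in Atphyb-9. All mutant libraries were below the wild type (-0.98 ± 0.184, adjusted p = 0.000201). LHY (AT1G01060), its partner, went from 126, 96.2 and 113 CPM to 57.2, 63.4 and 58.2 CPM (-0.91 ± 0.162, adjusted p = 9.3e-05). LNK3 (AT3G12320) fell by 1.22 ± 0.177, and LNK1, LNK2 and LNK4, of the same family of clock coactivators, were lower too (-1.07 ± 0.176, -0.88 ± 0.160 and -0.99 ± 0.164). Of the evening genes, ELF3 and LUX, of the evening complex, fell (-0.45 and -0.27, adjusted p = 0.0185 and 0.0421), whereas TOC1 (-0.21 ± 0.0958) and GI (-0.09 ± 0.10) were not called. LUX lost its call in each of the 6 fits without 1 library (adjusted p up to 0.174), and ELF3 without Atphyb-9 replicate 1 or Col-0 replicate 1 or 3 (up to 0.0774) and with the rRNA covariate (0.406). The labels give no hour of harvest. FKF1 (AT1G68050), a light-sensing F-box gene, was the member that rose (0.55 ± 0.169, adjusted p = 0.0201), a call lost without Atphyb-9 replicate 1 or Col-0 replicate 1 or 3 (up to 0.167) and with the rRNA covariate (0.174).

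Among flowering genes 9 of 30 fell and 1 rose, with a median of -0.26. COL2 (AT3G02380), a B-box gene related to CONSTANS, was at 90.4, 80.6 and 97.6 CPM in Col-0 and at 32.3, 36.8 and 33.1 CPM in Atphyb-9 (-1.39 ± 0.138, adjusted p = 1.16e-09). Several floral repressors were among the lower genes. FLC (AT5G10140), which blocks flowering until winter has passed, went from 18.3, 16.5 and 19.9 CPM to 10.9, 8.48 and 7.59 CPM (-1.02 ± 0.194, adjusted p = 0.000209). CDF1 (AT5G62430), CDF2 (AT5G39660) and CDF3 (AT3G47500), which repress CONSTANS, fell by 0.99 ± 0.222, 0.95 ± 0.157 and 0.98 ± 0.170, with CDF1 at an adjusted p of 0.0518 under the rRNA covariate. FT (AT1G65480), the mobile flowering signal, had 0 counts in the 3 Col-0 libraries and 0, 15 and 14 counts in Atphyb-9 replicates 1 to 3. Against a floor of 3 counts over the Col-0 group it was at least 11.0-fold higher (adjusted p = 0.00929), although the libraries overlapped at 0. Fits that left out 1 library gave 7 to 9 lower flowering genes, and the rRNA covariate gave 6.

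Cold-response genes rose in part, although the seedlings were warm. Of 21 genes 7 rose and 2 fell, with a median of 0.63. COR413IM1 (AT1G29395), a chloroplast inner membrane protein of freezing tolerance, was at 14.05, 18.1 and 15.2 CPM in Col-0 and at 76.5, 54.3 and 52.7 CPM in Atphyb-9 (1.95 ± 0.169, adjusted p = 4.6e-11). The mutant libraries were all several times higher. COR15A (AT2G42540) went from 0.324, 0.328 and 0.435 CPM to 3.01, 2.36 and 1.97 CPM (2.73 ± 0.386), and its near-identical neighbour COR15B rose by 2.35 ± 0.245, with reads that the counting may have split. LTI78 (AT5G52310) rose by 1.21 ± 0.162. LTI30 (-1.23 ± 0.207) and LTI65 (-1.26 ± 0.336), dehydrin and abscisic acid responsive genes, fell. CBF1 (AT4G25490), an activator of COR genes, was at 0.399, 0.281 and 0.5002 CPM in Col-0 and at 1.61, 1.02 and 5.00 CPM in Atphyb-9 (2.68 ± 0.956, adjusted p = 0.0487). CBF1 was thus highest in Atphyb-9 replicate 3 and was called in 1 of the 6 fits that left out 1 library, that without Atphyb-9 replicate 2 (adjusted p up to 0.291 in the others). LTI65 was not called without Atphyb-9 replicate 1 (0.0534). Without Atphyb-9 replicate 3, 4 cold-response genes rose, and with the rRNA covariate 10. COR15A, COR15B, COR413IM1 and LTI78 were called in each of the 6 fits that left out 1 library.

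Glucosinolates are sulfur-rich defence compounds of the cabbage family, and the genes that make the methionine-derived, aliphatic class rose from levels of a few CPM. Of 21 genes 12 rose and 1 fell, with a median of 1.76. CYP83A1 (AT4G13770), of the core structure pathway, was at 1.74, 2.32 and 0.892 CPM in Col-0 and at 10.4, 8.51 and 11.1 CPM in Atphyb-9. It rose by 2.60 ± 0.347 (adjusted p = 2.05e-06). CYP83A1 was among the 14 highest changes, taken only from genes without overlap, so its lack of overlap adds no evidence. IPMI1 (AT3G58990), of methionine chain elongation, went from 1.94, 3.07 and 1.28 CPM to 12.6, 10.6 and 14.1 CPM (2.57 ± 0.309, adjusted p = 2.96e-07), and MAM1 (AT5G23010), the condensing enzyme of the same cycle, from 1.77, 1.80 and 1.91 CPM to 5.29, 10.2 and 10.3 CPM (2.24 ± 0.377, adjusted p = 7.28e-05). Leaving out 1 library in turn gave 11 to 13 higher genes, and the rRNA covariate 11. Of the 24 indole glucosinolate and myrosinase genes 8 rose and 3 fell, and 5 rose without Atphyb-9 replicate 3, where CYP83B1, SOT16 and MYB51 were not called (adjusted p = 0.0615, 0.0606 and 0.314). GSTF10 (AT2G30870) rose by 1.17 ± 0.168. Of the myrosinases, enzymes that release the toxic products, TGG1 and TGG2 fell. TGG1 (AT5G26000) went from 1033, 1032 and 1207 CPM to 433, 504 and 482 CPM (-1.20 ± 0.117, adjusted p = 7.82e-10), and TGG2 (AT5G25980) from 11.8, 11.1 and 12.05 CPM to 4.49, 2.85 and 5.11 CPM (-1.5 ± 0.180, adjusted p = 9.32e-08).

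Several calls among hormone defence genes depended on a single library. In the jasmonate and touch list 5 of 35 genes rose and 1 fell, but 2 rose without Atphyb-9 replicate 3 and 3 without Col-0 replicate 1 or 2 or with the replicate block, and 3 fell without Atphyb-9 replicate 2. ST2A (AT5G07010), a sulfotransferase that inactivates a jasmonate, did not depend on it, at 18.4, 17.1 and 16.1 CPM in Col-0 and 104, 139.7 and 151 CPM in Atphyb-9 (2.94 ± 0.254, adjusted p = 2.93e-10). OPR3 (AT2G06050), of jasmonate synthesis, rose by 0.74 ± 0.146, and JAZ3 (AT3G17860), a repressor, fell by 0.67 ± 0.141. In the salicylate list 2 of 21 rose, WRKY70 (1.74 ± 0.520) and PR5 (2.57 ± 0.719), while 4 rose without Atphyb-9 replicate 2 and none without Atphyb-9 replicate 3, where the changes were 0.84 (adjusted p = 0.307) and 1.28 (adjusted p = 0.281). WRKY70 also lost its call without Col-0 replicate 1 or 2 or with the compared groups alone (0.227), and PR5 without Col-0 replicate 3 or with the rRNA covariate (0.0562). ICS1 (AT1G74710), the enzyme that commits chorismate to salicylate, fell (-0.62 ± 0.154, adjusted p = 0.00401). MYC2 (AT1G32640) was listed at 0 in all 6 libraries and gave no value. The list medians in each library show Atphyb-9 replicate 3 highest for jasmonate and touch (0.50) and salicylate (0.73), with -0.05 and 0.42 in replicate 2 and 0.06 and 0.16 in replicate 1. The highest Col-0 library was at 0.08 and 0.10.

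**Figure D3:**
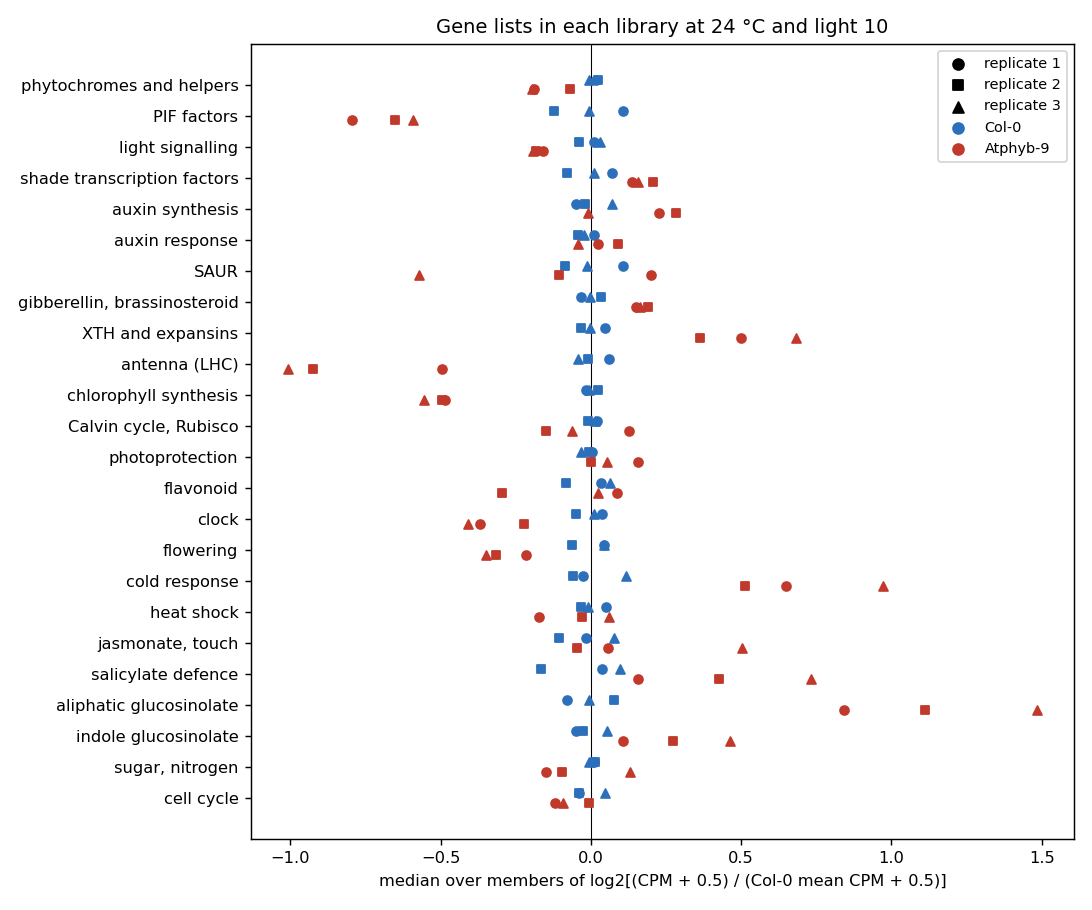
The median over list members of the log2 ratio of a library's CPM to the Col-0 mean, with 0.5 CPM added to each, is plotted for each of the 6 libraries and 24 lists, using members with a mean of at least 1 CPM; colors mark the line and shapes the replicate. Antenna medians lie between -1.01 and -0.49 in Atphyb-9 and between -0.04 and 0.06 in Col-0, while the jasmonate and salicylate lists are spread among the Atphyb-9 libraries.

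Several of the largest changes lay outside these pathways. CKX5 (AT1G75450), which degrades cytokinin, was at 4.38, 5.50 and 3.76 CPM in Col-0 and at 32.6, 27.1 and 27.1 CPM in Atphyb-9 (2.67 ± 0.207, adjusted p = 1.8e-12). ENODL1 (AT5G53870), an early nodulin-like protein gene, went from 1.59, 0.656 and 0.783 CPM to 21.3, 25.3 and 39.2 CPM (4.83 ± 0.541, adjusted p = 7.24e-08). Both genes, like all of the 14 highest and 14 lowest changes, were chosen among called genes whose libraries did not overlap. The lack of overlap therefore adds no evidence for any of them. PCC1 (AT3G22231), a defence-related gene under circadian control, went from 0.996, 0.609 and 0.544 CPM to 17.45, 11.1 and 37.3 CPM (4.94 ± 0.727, adjusted p = 1.06e-05). OPT1 (AT5G55930), an oligopeptide transporter gene, was among the largest decreases, from 14.2, 16.5 and 17.8 CPM to 2.77, 2.31 and 4.27 CPM (-2.38 ± 0.188, adjusted p = 2.84e-12). HEI10 (AT1G53490), known for meiotic crossovers, went from 14.9, 7.03 and 6.07 CPM to 2.1, 1.81 and 1.35 CPM (-2.41 ± 0.291, adjusted p = 9.32e-08). BBX16 (AT1G73870) and NGA3 (AT1G01030), transcription factor genes, fell by 1.4 ± 0.182 and 1.46 ± 0.240. AACT1 (AT5G61160), an acyltransferase gene, had the largest increase among named genes averaging 5 CPM or more whose groups did not overlap, at 0.174, 0.422 and 0.304 CPM in Col-0 and at 2.14, 6.33 and 40.7 CPM in Atphyb-9 (5.75 ± 1.17). The change was 3.82 without Atphyb-9 replicate 3 (adjusted p = 0.0232), and with the compared groups fitted alone it was 5.75 and not called (0.0897). AGP5 (an arabinogalactan protein), DIC2 (a mitochondrial dicarboxylate carrier), CAF1a (an mRNA deadenylase) and ACS6 (of ethylene synthesis) were no longer called without that library, at 1.66 for AGP5 (3.59 with it), 1.75 for DIC2 (3.06), 1.74 for CAF1a (2.42) and 1.41 for ACS6 (2.3). CAF1a and ACS6 also lost their calls without Col-0 replicate 1 or 2. The adjusted p-values reached 0.182, 0.134, 0.177 and 0.228, and none of these 4 genes was called with the compared groups alone (0.152, 0.129, 0.123 and 0.129).

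The other lists are read against the 8.57% of all genes tested that were called higher and the 9.01% called lower. Of 34 sugar and nitrogen genes 5 rose and 7 fell. With 1 library left out 2 to 6 fell, 2 of them without Atphyb-9 replicate 1 and 4 without Col-0 replicate 1 or 2, and with the rRNA covariate none fell. EXL4 (AT5G09440), of the EXORDIUM-like family, rose from 66.5, 70.3 and 54.0 CPM to 159.6, 152 and 183 CPM (1.37 ± 0.189, adjusted p = 1.93e-06). Of 22 heat shock genes 1 rose and 2 fell, and of 23 cell cycle genes none rose and 4 fell, among them AUR2 (AT2G25880), an Aurora kinase gene (-1.0 ± 0.216, adjusted p = 0.00102). With 1 library left out 2 or 3 cell cycle genes fell and 1 or 2 heat shock genes. In these fits CYCD3;1 lost its call in 5 of 6, and CYCA2;3 and HSP17.6 in 4 of 6. With the rRNA covariate 1 cell cycle gene fell, and no heat shock gene was called. Of the 18 root markers 6 rose and 3 fell, COBL9 (-1.17 ± 0.300) among the latter, with a median of 0.03. The CASP genes, which build the Casparian strip of the root endodermis, were 5 of the 6, with CASP4 (AT5G06200) at 7.07, 6.67 and 5.28 CPM in Col-0 and at 14.7, 16.2 and 13.1 CPM in Atphyb-9 (1.21 ± 0.207, adjusted p = 4.88e-05). With the rRNA covariate 3 root markers rose and 4 fell, and 1 fell without Atphyb-9 replicate 2 or 3 or Col-0 replicate 1 or 3.

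The effect of the mutation at 24 °C in light 10 was then tested against its effect in brighter light. The difference between the effects at light 10 and light 100, both at 24 °C, was called for 229 of 22828 genes (1.00%), 111 with a more positive effect in dim light (0.486%) and 118 with a more negative one (0.517%). An unadjusted p under 0.05 was reached by 3004 genes, and DESeq2 called 580. With 1 of the 12 libraries left out in turn, 114 to 314 genes were called, and the count was 114, 126 and 146 without Col-0 replicates 1, 2 and 3 at light 100, 133 to 135 without a Col-0 library at light 10, and 134 and 140 without Atphyb-9 replicates 1 and 3 at light 10. XTH15 was among the called genes, with an effect of 2.25 at light 10 and of 0.76 ± 0.182 at light 100 (difference 1.49 ± 0.256, adjusted p = 0.00132). HEMA1 was at -1.38 and -0.51 ± 0.142 (difference -0.87 ± 0.201, adjusted p = 0.0193), and COL2 at -1.39 and -0.61 ± 0.136 (difference -0.79 ± 0.192, adjusted p = 0.0295). Both of these calls were weak. HEMA1 lost its call in 6 of the 12 fits without 1 library (without Atphyb-9 replicate 1 or Col-0 replicate 3 at light 10, or Atphyb-9 replicate 2 or 3 or Col-0 replicate 1 or 3 at light 100; adjusted p up to 0.0634), and COL2 in 8, all but those without Atphyb-9 replicate 2 or Col-0 replicate 2 at light 10 or Atphyb-9 replicate 1 or 3 at light 100 (up to 0.0922), and with the replicate block (0.0571). ATPMEPCRD had the smaller effect in dim light, 2.27 against 3.55 ± 0.171 (difference -1.28 ± 0.220, adjusted p = 0.00132). In the aliphatic glucosinolate list 6 of 21 genes had a more positive effect in dim light and none a more negative one, among them CYP83A1, at 2.60 in dim light and 0.27 ± 0.292 in bright light (difference 2.34 ± 0.451, adjusted p = 0.00505). For PIF4, PIF5, LHCB3 and CAO the difference was not called, at -0.31 ± 0.195, -0.23 ± 0.160, -0.37 ± 0.182 and -0.58 ± 0.169. CAO was called without Atphyb-9 replicate 2 at light 10 or Atphyb-9 replicate 1 at light 100 (-0.66 and -0.67, adjusted p = 0.0481 and 0.0431), with the rRNA covariate (0.0444) and by DESeq2 (0.0311). The antenna list had 15 of 20 genes lower in Atphyb-9 at light 100, where 5.93% of all genes were lower.

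The difference from the cold was far wider. Against the effect at 16 °C in light 10, 3294 genes were called (14.4%), 1543 with a more positive effect in warmth (6.76%) and 1751 with a more negative one (7.67%). In that cold condition the mutant had 3367 genes higher (14.7%) and 3305 lower (14.5%) than Col-0. PIF4 was lower in the warm mutant, as given above, and at 0.17 ± 0.138 in the cold (difference -1.33 ± 0.196, adjusted p = 3.14e-06). PIF5 was higher in the cold mutant, at 0.41 ± 0.114, and lower in the warm one (difference -1.37 ± 0.161, adjusted p = 3.34e-08). The antenna list reversed, with 14 of 20 genes higher and none lower at 16 °C against 1 higher and 16 lower at 24 °C, and the difference itself was called in 18 genes, all more negative in warmth. LHCB3 was at 1.00 ± 0.130 in the cold (difference -2.23 ± 0.184, adjusted p = 4.85e-12) and CAO at 0.87 ± 0.120 (difference -2.19 ± 0.171, adjusted p = 9.44e-13). LNK3 went the same way, at 2.01 ± 0.182 in the cold (difference -3.23 ± 0.254, adjusted p = 1.05e-12). All 19 SAUR genes were higher in the cold mutant, and the difference was called in 18 of them, more negative in warmth. Aliphatic glucosinolate genes had 18 of 21 lower in the cold mutant, and 17 had a more positive effect in warmth, with MAM1 at -3.16 ± 0.380 in the cold (difference 5.40 ± 0.534, adjusted p = 4.99e-09). Cold-response genes had 1 higher and 9 lower in the cold mutant, and 14 of 21 had a more positive effect in warmth. COR413IM1 was at -0.36 ± 0.162 there (difference 2.31 ± 0.234, adjusted p = 1.17e-09). ST2A, with effects of 2.94 and 2.98 ± 0.260, and OPT1, with -2.38 and -1.72 ± 0.191, gave differences that were not called (-0.05 ± 0.340 and -0.65 ± 0.264). The difference of OPT1 was called without Atphyb-9 replicate 3, whether that of 24 °C or of 16 °C (-0.95 and -0.94, adjusted p = 0.0122 and 0.00653).

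**Figure D4:**
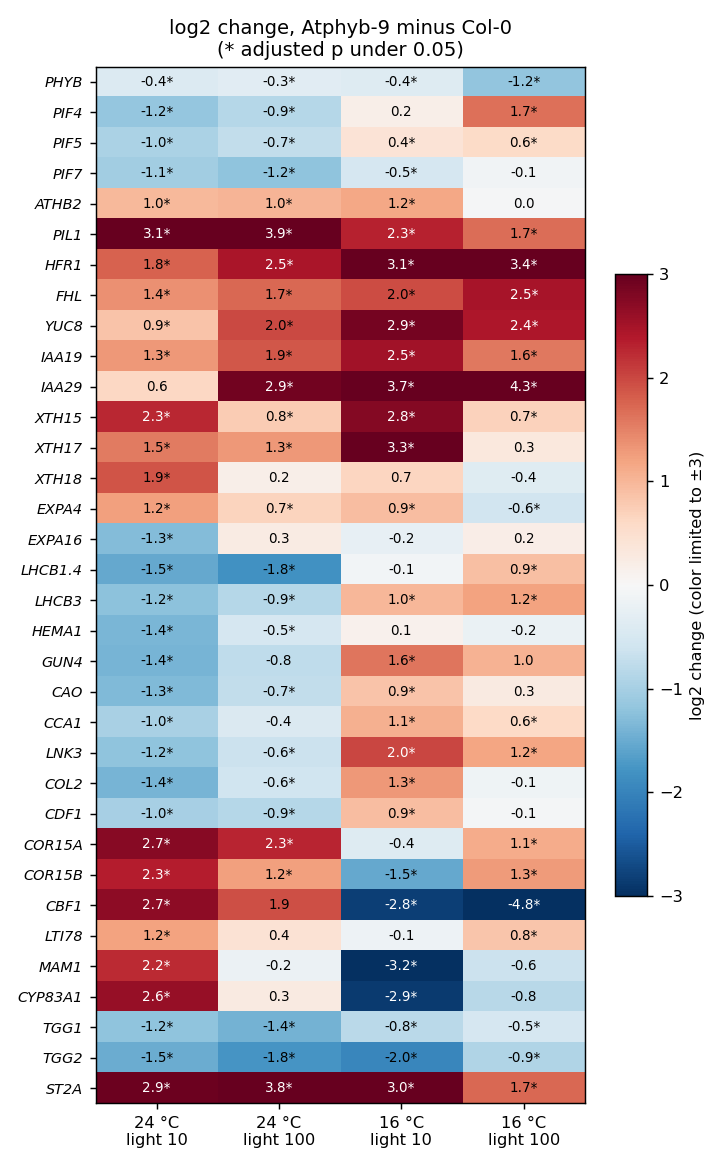
The log2 change between Atphyb-9 and Col-0 is given for 34 genes (lines) in each of the 4 conditions (columns), colored from blue (lower) to red (higher) with the colors limited to ±3, and an asterisk marks an adjusted p under 0.05. LHCB3 is blue in both columns at 24 °C and red in both at 16 °C, whereas XTH15 and ST2A are red in all 4.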

How the data were processed

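RNA-seq of whole seedlings was used as whole-number counts per gene, as deposited by the authors in 1 table for the 48 Arabidopsis libraries. Per the labels' protocols, total RNA was extracted with a NucleoSpin plant kit and sequenced by BGI as paired reads on DNBseq. The submitters' processing notes name FastQC 0.11.5 and HISAT2 2.1.0. Which counting program, genome build, annotation and strand setting were used is not given in the sources used here, so reads of overlapping and antisense genes cannot be told apart. Gene names came from the RefSeq TAIR10.1 gene table, which held 32548 of the 32833 identifiers, 10804 with a symbol of their own.

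All 48 libraries were fitted with edgeR 4.0.16 (limma 3.58.1 under R 4.3.3) with a mean for each of 16 groups and 32 residual degrees of freedom, after filterByExpr with a minimum count of 10, TMM scaling (factors of the 6 libraries 0.797 to 1.06) and robust quasi-likelihood fits. Benjamini-Hochberg adjustment ran over all 22828 genes tested, and a call needed an adjusted p below 0.05. All such p-values are from edgeR unless DESeq2 (1.42.0) is named. The SE of a log2 change, Atphyb-9 minus Col-0, was derived from its F statistic. The steps were tested on simulated counts, and no 2 libraries within a group were as close as 1 library counted again.

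Gene lists held 604 symbols, of which 593 matched. The members and lists were chosen with earlier results of these data known. Named are PHYB, the other phytochromes, PIF4, PIF5 and HY5, the 14 highest and 14 lowest called changes among genes with a symbol, 5 CPM or more and no overlap, up to 5 members of each list by adjusted p, and the 4 highest and 4 lowest differences of effects. Of the 146 genes so chosen for the main comparison 139 were called. Other list members in the text were chosen after their values were seen. Alternatives were RLE scaling, no low-count filter, DESeq2, the compared groups alone, the replicate number as a block, removal of rRNA and organelle genes, the rRNA share as a covariate, and each library left out.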

Additional observations from a re-analysis of the deposited data

Results flagged for a closer look

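The effect of the mutation at 24 °C in light 10 differed by a direct test from that at 24 °C in light 100 in 229 genes, and from that at 16 °C in light 10 in 3294 genes. The value first given after each gene is such a difference on the log2 scale, which passed the test (edgeR, adjusted p under 0.05). The genes are those with the most extreme differences among named genes averaging 5 CPM or more.

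Against light 100, the most positive differences were those of AACT1, CYP79F1, BCAT4 and EARLI1. CYP79F1 (4.47), the first enzyme of the aliphatic glucosinolate core pathway, was at 0.701 to 1.51 CPM in Atphyb-9 and at most 0.152 CPM in Col-0 in dim light, and at 60.2 to 81.0 CPM and 65.8 to 78.6 CPM in bright light. BCAT4 (3.87), of methionine chain elongation, was at 1.16 to 3.34 CPM and at most 0.274 CPM in dim light, and at 65.8 to 73.6 CPM and 56.2 to 66.3 CPM in bright light. Both lines thus held far more of both transcripts in bright light. CYP79F1 had 0, 0 and 7 counts in the Col-0 libraries in dim light, so the size of its difference depends on 1 library, and without Col-0 replicate 3 it was 8.74. It lost its call in each of the 12 fits that left out 1 library (adjusted p up to 0.149), and BCAT4 without Atphyb-9 replicate 3 or Col-0 replicate 2 or 3 in dim light (up to 0.108). AACT1 (6.94) and EARLI1 (3.03) rested on Atphyb-9 replicate 3 in dim light, at 40.7 CPM for AACT1 beside 2.14 and 6.33 CPM, and at 158 CPM for EARLI1 beside 23.2 and 25.4 CPM. Without it the differences were 5.01 (adjusted p = 0.0888) and 1.53 (adjusted p = 0.271). EARLI1 was not called in 7 others of the 12 fits either (adjusted p up to 0.11).

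The most negative differences against light 100 were those of IAA29 (-2.27), ACS8 (-1.88), BGLU21 (-1.77) and EXPA16 (-1.56). IAA29, an auxin-induced gene, was at 8.20 to 10.0 CPM in Atphyb-9 in dim light and 7.87 to 8.32 CPM in bright light, while Col-0 held 4.96 to 7.37 CPM in dim and 0.696 to 1.49 CPM in bright light, so the levels of the wild type moved and those of the mutant overlapped. Its call was lost without Col-0 replicate 1 in dim light (adjusted p = 0.0639) or Col-0 replicate 2 in bright light (0.0676). ACS8, of ethylene synthesis, was not called in 6 of the 12 fits without 1 library (Atphyb-9 replicate 1 or Col-0 replicate 2 or 3 in dim light, Atphyb-9 replicate 3 or Col-0 replicate 2 or 3 in bright light; adjusted p up to 0.0935). EXPA16 was at 19.5 to 25.7 CPM in Col-0 and 8.16 to 9.62 CPM in Atphyb-9 in dim light, and at 1.39 to 1.81 CPM and 1.35 to 2.37 CPM in bright light. BGLU21, a beta-glucosidase gene, was at 51.1 to 66.9 CPM in Col-0 and 22.9 to 28.1 CPM in Atphyb-9 in dim light, and Atphyb-9 replicate 1 in bright light held 129 CPM beside 59.8 and 55.0 CPM.

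Against 16 °C, the most positive differences were those of AACT1 (8.84), DIC2 (6.46), RTFL12 (5.74) and ZAT10 (5.59). Col-0 replicate 1 at 16 °C was the highest wild-type library for all 4, for instance at 333 CPM of ZAT10, a stress-induced zinc finger gene, beside 129.96 and 45.5 CPM, and Atphyb-9 replicate 3 at 24 °C was the highest mutant library. Without Col-0 replicate 1 at 16 °C the differences were 7.38, 5.23, 4.55 and 4.64, and without Atphyb-9 replicate 3 at 24 °C 6.91, 5.15, 5.00 and 4.61, all still called. Between the lines at 24 °C alone, ZAT10 was not called (effect 1.98, adjusted p = 0.0885). DIC2 and RTFL12 lost that call without Atphyb-9 replicate 3 (adjusted p = 0.134 and 0.154), and RTFL12 also without Atphyb-9 replicate 1 or Col-0 replicate 1 or 2. At 16 °C ZAT10 was at 12.7 to 15.7 CPM in Atphyb-9, below each Col-0 library.

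The most negative differences against 16 °C were those of ADS1 (-4.16), ACS8 (-3.59), IAA29 (-3.03) and GUN4 (-3.0). ADS1, a fatty acid desaturase gene, was at 25.8 to 52.7 CPM in Atphyb-9 and 16.9 to 22.5 CPM in Col-0 in warmth, and at 65.1 to 77.7 CPM and 1.62 to 2.44 CPM in the cold. IAA29 was at 19.0 to 25.5 CPM in Atphyb-9 and 1.70 to 1.72 CPM in Col-0 in the cold. GUN4 was at 352 to 988 CPM in Atphyb-9 at 16 °C, with replicate 3 the highest, and without that library the difference was -2.40 (adjusted p = 0.00554). The cause of these single high libraries was not tested.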

How the results depend on the processing

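With 1 library left out in turn, the called genes of the main comparison numbered 2540 to 3925, of which 1183 to 1974 were higher and 1348 to 1951 lower. The rRNA share as a covariate gave 2219 called (1023 higher, 1196 lower), 1911 of them also called without it, and the cause was not tested, since this share and the genotype do not overlap. The difference from light 100 went from 229 genes to 580 (243 more positive, 337 more negative) with DESeq2, to 426 (194 and 232) with the covariate, and to 114 to 314 (57 to 160 and 57 to 155) with 1 library left out. The more positive differences from 16 °C numbered 963 with the compared groups alone and 1169 to 1510 with 1 library left out. The replicate number as a block gave 3584, 183 and 2922 called genes for the 3 comparisons. Same-numbered libraries of the lines did not deviate together (correlations -0.02, -0.03 and 0.15 across genes), Atphyb-9 replicate 1 deviated most like Col-0 replicate 2 (0.17), and the numbers were not taken as pairs. Removing rRNA and organelle genes lowered the share of called genes that were higher from 48.7% to 44.3%. No call shared with any alternative changed sign. The difference of ST2A from 16 °C, which was not called, ran from -0.22 to 0.10 with 1 library left out. Of the 139 called named genes, 25 lost their call with the covariate, 18 with the compared groups alone and 4 with the block. At this depth genes with a few counts per library, such as FT, support a direction more than a size.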

Other observations

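Photosystem subunit genes were lower, like those of the antenna. Of 23 nuclear genes for photosystem I and II subunits, a list chosen after the values were seen, 16 fell and none rose, with a median of -0.57. PSAD-2 (AT1G03130), a subunit at the ferredoxin docking side of photosystem I, was at 1705, 1181 and 1577 CPM in Col-0 and at 496, 525 and 797 CPM in Atphyb-9 (-1.30 ± 0.184, adjusted p = 2.46e-06). PSAH2 (AT1G52230) fell by 0.86 ± 0.108. All mutant libraries of both genes lay below all wild-type libraries, but both were picked after their values were seen, so this adds no evidence. Over all genes tested 9.01% were called lower, and the libraries of the lines did not overlap in 35.4%.

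Root hair genes, also listed after their values were seen, were lower in 7 of 23 cases and higher in none, with a median of -0.94. LRX1 (AT1G12040), a cell wall protein of root hairs, was at 48.6, 55.6 and 43.4 CPM in Col-0 and at 20.7, 24.2 and 24.0 CPM in Atphyb-9 (-1.10 ± 0.324, adjusted p = 0.0171). COBL9 (AT5G49270), needed for root hair growth, fell by 1.17 ± 0.300. HRGP1 lost its call without Atphyb-9 replicate 1 or 2 or Col-0 replicate 2 (adjusted p up to 0.0899) and with the rRNA covariate (0.0548). EXT13 lost its call without Atphyb-9 replicate 1 (0.0501). RHS16 and RHS18 were called at low levels, at most 1.61 and 1.02 CPM in any library. RSL4 and RHD6, transcription factors of root hair fate, were not called (-0.07 ± 0.518 and -0.04 ± 0.345). Col-0 replicate 2 was the highest library for several extensins of the list, for instance at 114.5 CPM of EXT6 beside 48 and 44.9 CPM.

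VEN4 (AT5G40270), the gene in which some phyB-9 stocks are known to carry a second mutation, was at 2.72, 3.28 and 3.09 CPM in Col-0 and at 0.666, 1.02 and 0.983 CPM in Atphyb-9 (-1.75 ± 0.417, adjusted p = 0.00273). It was also lower at 24 °C in light 100 (-1.70 ± 0.393) and, at 16 °C, in light 10 (-1.94 ± 0.428) and light 100 (-1.87 ± 0.397). VEN4 was chosen after its values were seen, and the counts hold no sequence from which a mutation could be read.

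AT3G05955, annotated as a long non-coding RNA on chromosome 3, had 0 to 2 counts in the 12 Col-0 libraries of all 4 conditions and 33 to 121 counts in the 12 Atphyb-9 libraries. In the other mutant lines it had 15 to 99 counts, so the libraries with the fewest counts were those of Col-0. It was the only gene with at most 5 counts in each library of one line and at least 30 in each of the other.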
